A study of Homo sapiens with 8 samples.

Results

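The subject is the dependence of the EN2 response on the cell line: for each gene, the EN2 minus vector change in A549 minus the same change in PC9, here called the interaction. A positive value means that the change was higher in A549, and a negative value that it was lower there. Every gene with an annotated probe set is a member, which gave 18244 of 18244 genes. A549 and PC9 are established human lung adenocarcinoma lines, grown in different media (F-12K for A549, DMEM for PC9). Cells of each line were infected with a retrovirus that carried EN2, or with the Neo retrovirus as the vector control, and stable cells were then drug selected, so the controls share the infection and the selection. The labels do not say whether the stable cells were pools or single clones, nor which promoter drove EN2. The series held 8 arrays, with 2 for each of the groups A549 EN2, A549 vector, PC9 EN2 and PC9 vector.

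EN2 encodes an engrailed homeodomain transcription factor that patterns the midbrain and hindbrain and often represses transcription through TLE corepressors. A transcription factor can act on a gene only where chromatin and partner proteins allow it, and these differ between lines. A549 carries a defective KEAP1 and an intact p53, whereas PC9 depends on an activated EGFR and has a mutant p53.

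Signals are log2 values of probe sets, and a gene was read from its probe set with the highest mean. Array medians ran from 6.33 to 6.35 for A549 and from 6.102 to 6.109 for PC9, so how the scales of the lines compare is not known. Each change was taken within a line, so a constant offset between lines drops out of the interaction, but a difference in compression does not. The level of background, set at the 95th percentile of 100 ERCC spike-ins, came to 4.38 (A549) and 3.92 (PC9). All 7 measured markers of lung epithelium were above it in every group. Of the markers of other cell types, 4 of 7 for immune cells, 4 or 5 of 8 for fibroblasts and 5 or 6 of 7 for endothelial cells were above it in each group, at median levels of 4.12 to 5.91. The control signal for 18S rRNA stood at 11.66 and 12.12 with EN2 and at 12.44 and 12.74 with vector in A549, while PC9 arrays gave 6.049 to 6.095. It therefore moved with EN2 in A549 alone. The 3′ minus 5′ signal of the ACTB control probe sets, a sign of RNA or labelling quality, was 0.98 and 0.88 with EN2 and 0.79 and 0.78 with vector in A549, and 1.29 and 1.03 against 1.09 and 1.13 in PC9. It was higher in both A549 EN2 arrays and overlapped in PC9, and its part in the results was not tested.

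The main comparison asked which genes changed differently with EN2 in the lines. TFF1, SPOCK1 and FN1 had a higher change in A549 than in PC9, as did PPP1R14C and PCDH7, which fell in PC9 and were level in A549. EHF, PKIB, PI3 and the zinc finger gene ZNF57 had a lower change in A549. In limma's test with Benjamini-Hochberg adjustment over 18244 genes, 143 genes were called at an adjusted p below 0.05 (0.784% of genes). Of these, 84 were higher in A549 (0.460%) and 59 were lower (0.323%). The interaction was at least 1 on the log2 scale in 32 of the higher and 24 of the lower genes, and the smallest called size was 0.45. For all 143, the 4 pairwise EN2 minus vector differences of A549 lay on 1 side of all 4 of PC9, which was so for 26.1% of all genes.

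**Figure D1:**
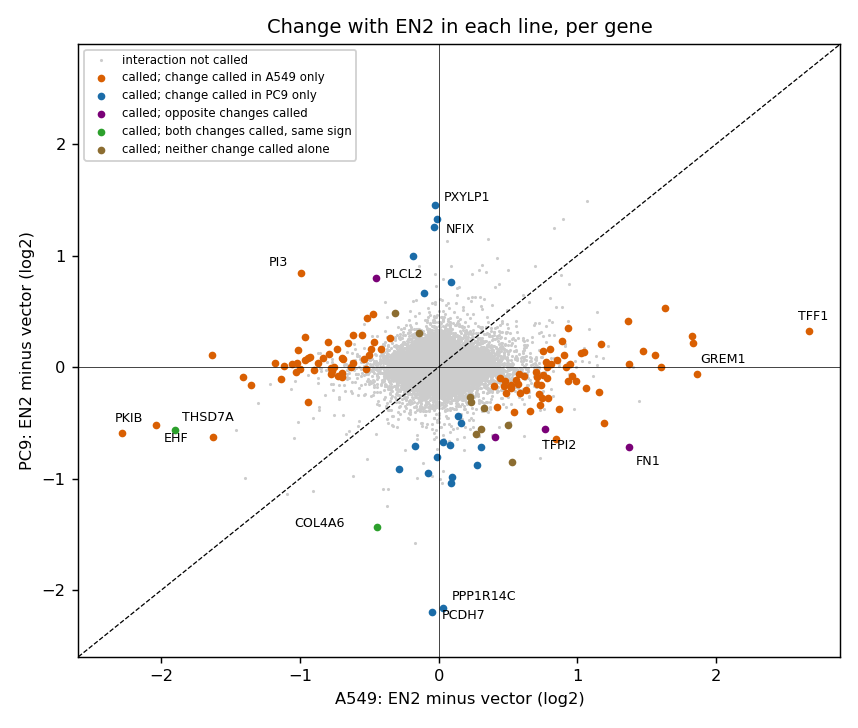
Each point is a gene, with its EN2 minus vector change in A549 on the x axis and in PC9 on the y axis (log2); the dashed line marks equal changes. Coloured points are genes called in the interaction, by which line's change was itself called; most lie along the A549 axis, and a smaller set with PPP1R14C and PCDH7 lies along the PC9 axis.

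With all arrays, most line-dependent genes were called in A549. Of the 143, the change was called in A549 only for 108 (59 higher and 49 lower in the interaction) and in PC9 only for 20 (14 higher and 6 lower). Opposite changes were called in both lines for 4, changes of the same sign but of different size for 2, and neither change alone for 9. Among all genes, 2.72% were called in A549 (1.57% up and 1.15% down) and 0.367% in PC9 (0.148% up and 0.219% down). Most of the A549 calls were not shown to differ between the lines: of 476 genes called in A549 and not in PC9, 108 (22.7%) were called in the interaction, and of 47 called in PC9 and not in A549, 20 (42.6%) were. The changes of the lines correlated across the 18244 genes at r = 0.092 and across the 496 genes called in A549 at r = 0.26. Those 496 had a PC9 change of the same sign in 278 cases. The lines share no arrays, and genes are not independent replicates.

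These counts, and the lead of A549, moved with the 18S rRNA signal in the fit. With the signal as a covariate 20 genes were called in A549 and 92 in PC9. The signal hardly varied in PC9 and split by EN2 in A549, so its slope rests on the A549 replicates. The covariate therefore costs precision in A549 far more than in PC9, and the counts of the lines are not on equal terms. Which part of the lead of A549 goes with the signal was not tested. With that signal as a covariate, 5 genes were called higher and 5 lower, and 7 of these were among the 143: TFF1, PPP1R14C, PCDH7, FN1, SPOCK1, ZNF57 and PRSS3, a trypsinogen gene. The other 3 were the heat shock genes HSPA1A (−2.18) and HSPA1B (−2.09), near-identical copies that may share signal, and the neuropeptide gene NTS (−2.004). All 143 genes kept their sign with the covariate, and their median size was 0.869 of the first value, while the median SE of the 143 went from 0.13 to 0.20. With the A549 arrays at both ends of that signal left out, each A549 group kept 1 array. The residual spread then came from the PC9 arrays alone, so the calls of that fit are not on equal terms with the others. The signs of the 143 genes could not change in that fit, because their pairwise differences did not overlap between the lines. Their median size ratio was 0.934. When each array was left out in turn, 40 genes were called without A549 EN2 replicate 1 or A549 vector replicate 2, 124 without A549 EN2 replicate 2, 111 without A549 vector replicate 1, and 43 to 46 without a PC9 array. Of the 143, 29 were called in all 8 fits (18 higher and 11 lower).

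TFF1, with the highest interaction of the called genes in this fit, encodes a secreted trefoil peptide that protects mucous epithelia. In A549 it read 9.97 and 9.84 with EN2 against 7.28 and 7.17 with vector, and in PC9 7.52 and 7.78 against 7.24 and 7.41. The vector levels of the lines were close, and the EN2 arrays lay above the vector arrays in both, by far more in A549; the PC9 change of 0.33 did not pass (adjusted p = 0.497). The interaction was 2.35 ± 0.15 (SE; limma adjusted p = 0.000667), and it was still called with the 18S rRNA covariate (2.15, adjusted p = 0.0389). SPOCK1, a secreted proteoglycan core, moved in A549 from 7.63 and 7.62 to 8.94 and 8.70. In PC9 it read 9.96 and 9.83 with vector and 9.44 and 9.35 with EN2, a change of −0.50 that did not pass (adjusted p = 0.083). EN2 and vector arrays did not overlap in either line, and the interaction of 1.69 ± 0.13 was called (adjusted p = 0.00101).

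Other genes rose in A549 with a PC9 change near 0. NPTX1, a neuronal pentraxin, went from 8.24 and 8.26 to 9.98 and 9.73 in A549, while the PC9 arrays read 8.44 and 8.86 with EN2 and 8.63 and 8.67 with vector. The PC9 EN2 arrays lay on either side of the vector arrays. DIO2, the deiodinase that activates thyroid hormone, rose 3.55-fold in A549 from a low level (5.42 and 5.14) to 6.99 and 7.23. In PC9, where DIO2 was high, it read 10.30 and 10.44 with EN2 against 10.13 and 10.05 with vector. The interactions were 1.61 for NPTX1 and 1.55 for DIO2, with adjusted p = 0.00585 and 0.00369. With the mean of its 2 probe sets the NPTX1 value was 0.97 (adjusted p = 0.00908). PLPP3, a lipid phosphate phosphatase, rose 2.78-fold in A549 and had a PC9 change of 0.15, with an interaction of 1.33 (adjusted p = 0.0075).

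For several A549-led genes PC9 gives no reading, because its level was below background in both groups. This held for 13 of the 108 genes called in A549 only. IQGAP2, a cytoskeletal scaffold, rose in A549 from 5.11 and 4.99 to 6.90 and 6.87, and the PC9 arrays were all between 3.09 and 3.50. XYLT1, the enzyme that starts glycosaminoglycan chains, had an interaction of 1.35, with PC9 arrays at 3.18 to 3.21. CA13, a carbonic anhydrase, had one of 1.39, with PC9 arrays at 3.09 to 3.43, and with the mean of its 3 probe sets 0.67 (adjusted p = 0.0393). Its probe sets gave 1.39, 0.69 and −0.06, the last at a mean level of 3.58, below background. GASK1B (1.45) was below background in the A549 vector arrays as well. In these genes the interaction is the A549 change set against an unread level.

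GREM1, a secreted BMP antagonist, and GATA6, an endoderm transcription factor, had wider spreads. In A549, GREM1 read 9.08 and 8.34 with EN2 and 7.10 and 6.59 with vector; in PC9 the pairs were 5.02 and 5.02, and 5.35 and 4.82. Its interaction of 1.93 ± 0.36 (adjusted p = 0.047) was called in 1 of the 8 fits that left out an array and went to 0.76 with the 18S rRNA covariate (adjusted p = 0.703). GATA6 rose 1.80-fold in A549 and had a PC9 change of −0.64 that did not pass, giving 1.49 (adjusted p = 0.0189). It was called in 3 of the 8 fits and went to 0.99 with the covariate (adjusted p = 0.497).

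PCDH7 and PPP1R14C carried the interaction from the PC9 side. PCDH7, a protocadherin, fell in PC9 from 8.56 and 8.93 to 6.44 and 6.65. In A549 it read 4.52 and 4.69 with EN2 and 4.62 and 4.69 with vector, just above background, so that a fall of the PC9 size could not have been read there. PPP1R14C, whose product inhibits a protein phosphatase, fell in PC9 from 7.94 and 8.17 to 5.91 and 5.89. In A549 it was above background and level, at 6.57 and 6.32 with EN2 and 6.35 and 6.48 with vector. The interactions were 2.15 ± 0.19 for PCDH7 and 2.19 ± 0.16 for PPP1R14C (adjusted p = 0.00181 and 0.00089), and both were called in all 8 fits that left out an array and with the 18S rRNA covariate.

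Genes that rose in PC9 alone gave negative interactions. PXYLP1, a phosphatase of glycosaminoglycan synthesis, rose in PC9 from 7.21 and 7.20 to 8.64 and 8.68. Its A549 arrays read 7.19 and 7.25 with EN2 and 7.15 and 7.34 with vector, so 3 of the 4 groups were level. The interaction was −1.49 ± 0.12 (adjusted p = 0.00132). NFIX, a nuclear factor I transcription factor, rose 2.52-fold in PC9 with an A549 change of −0.01 (interaction −1.34, adjusted p = 0.0176). The cytokine gene TNFSF15 rose 2.39-fold in PC9 and was below background on every A549 array (interaction −1.29). COL8A1, a short-chain collagen, was called on 1 of its 3 probe sets (−1.18), and with the mean of all its probe sets the interaction was −0.18 (adjusted p = 0.604). Its other probe sets had mean levels of 2.99 and 2.92, below background, so they give little reading either way. The NFIX call also ended with the mean of its probe sets (−0.65, adjusted p = 0.0677).

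**Figure D2:**
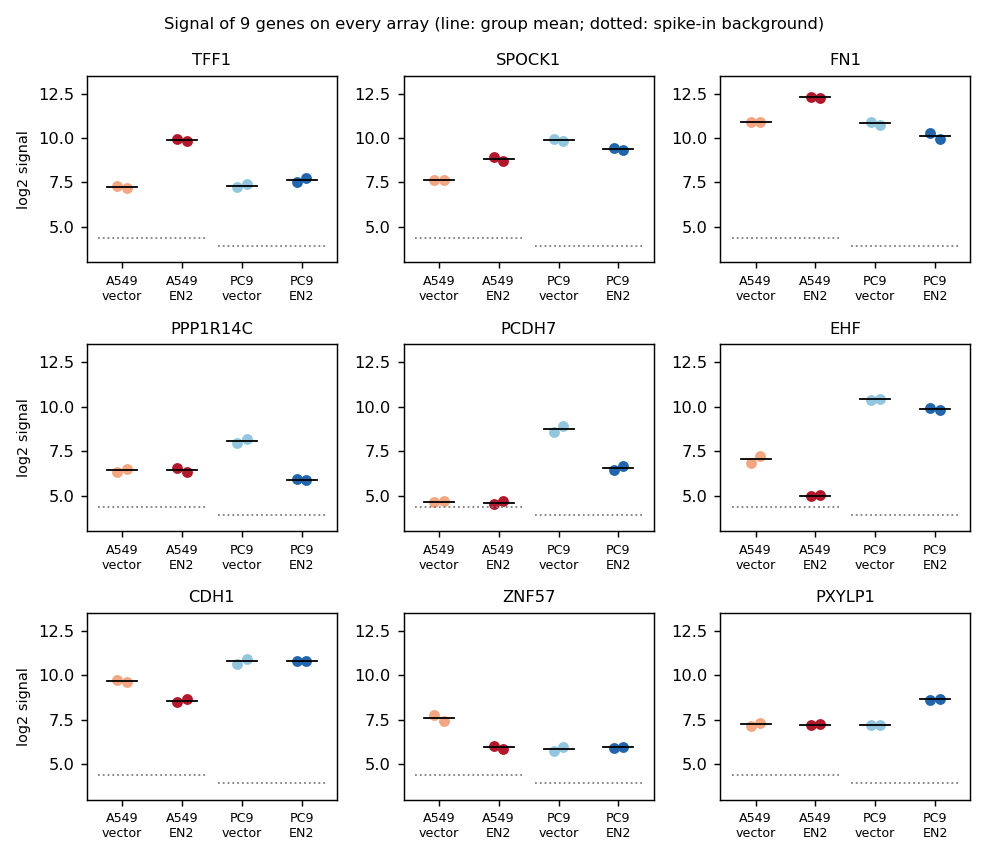
Log2 signal of 9 genes on each of the 8 arrays (points), with group means as lines and the spike-in background of each line dotted. TFF1 is highest in the A549 EN2 arrays, PPP1R14C, PCDH7 and PXYLP1 move with EN2 in PC9 and are level in A549, and FN1 moves in opposite directions.

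In 4 genes EN2 went with opposite called changes. FN1 encodes fibronectin, an extracellular matrix protein, and it rose 2.59-fold in A549 and fell 1.64-fold in PC9. It read 12.31 and 12.26 against 10.91 and 10.91 in A549, and 10.29 and 9.94 against 10.89 and 10.76 in PC9. The vector levels of the lines were close, the EN2 arrays lay beyond the vector arrays in each line, and all 8 probe sets had a positive interaction. The interaction was 2.09 ± 0.14 (adjusted p = 0.000667), or 2.03 with the 18S rRNA covariate (adjusted p = 0.0389), in which fit the PC9 change alone was called. TFPI2, a secreted serine protease inhibitor, rose 1.71-fold in A549 and fell 1.47-fold in PC9 (1.32, adjusted p = 0.00243). PEG10, an imprinted retrotransposon-derived gene, rose 1.33-fold in A549 and fell 1.55-fold in PC9 (1.04, adjusted p = 0.0075). PLCL2, a phospholipase C-like protein, had the reverse order (−1.25, adjusted p = 0.00481), but only its PC9 EN2 arrays (4.52 and 4.76) were above background. With the mean of probe sets the PC9 change did not pass for FN1 (−0.64, adjusted p = 0.0815) or TFPI2 (−0.53, adjusted p = 0.132). Neither PEG10 change passed with that mean (0.27 and −0.42, adjusted p = 0.141 and 0.156). The interactions of FN1, TFPI2 and PEG10 stayed called, so the opposite calls depend on the probe set.

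COL4A6 and THSD7A were called in both lines with the same sign and also in the interaction. COL4A6, a basement membrane collagen chain, fell by 0.44 in A549 and by 1.44 in PC9 on the log2 scale (interaction 0.99, adjusted p = 0.00515). This was its brightest of 7 probe sets, and with the mean of all 7 the interaction was 0.42 and not called (adjusted p = 0.178). THSD7A, a thrombospondin-domain membrane protein, fell by 1.91 in A549, from 7.68 and 7.62 to 5.69 and 5.79. In PC9 it fell by 0.56, from 4.24 and 4.30 to 3.75 and 3.66, which crosses background, so the PC9 fall was not fully read and a difference between the lines cannot be shown for THSD7A. In FOXO1, a forkhead transcription factor, neither change passed alone, at 0.53 in A549 and −0.85 in PC9. Its interaction of 1.38 (adjusted p = 0.0389) went to 0.60 with the 18S rRNA covariate (adjusted p = 0.624) and lost its call with the mean of its probe sets (0.72, adjusted p = 0.0639).

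On the lower side, ZNF57 fell in A549 from 7.76 and 7.45 to 6.05 and 5.88 and read 5.92 and 5.99 with EN2 against 5.76 and 5.94 in PC9. The A549 EN2 arrays were thus near the level of PC9. The interaction was −1.74 ± 0.17 (adjusted p = 0.00261), and it was called with the 18S rRNA covariate (−2.11, adjusted p = 0.0389). ZNF77, its next gene in the order of tested genes, had an interaction of −1.33, and ZNF555 one of −1.20 (adjusted p = 0.00261 and 0.0054). These are zinc finger genes of a cluster on chromosome arm 19p. ZNF554 (−0.10) and ZNF556 (−0.16), which flank ZNF555 in it, were not called, and ZNF556 was below background in the vector arrays of both lines. Of 16 cluster genes measured, 3 were lower (0.323% of all genes were), none was higher and 13 did not pass. The list was chosen with earlier results known. ZNF165, a zinc finger gene outside this cluster, fell 2.02-fold in A549 with a PC9 change of 0.16 (−1.17, adjusted p = 0.00775).

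Of the 31 epithelial markers measured, 4 were lower, and 0.323% of all genes were. EHF, an epithelial ETS-family transcription factor, read 4.96 and 5.04 with EN2 against 6.83 and 7.24 in A549, and 9.94 and 9.84 against 10.36 and 10.46 in PC9. The PC9 change of −0.52 did not pass (adjusted p = 0.206), and the interaction was −1.52 ± 0.17 (adjusted p = 0.0054). It rested on 3 of the 8 EHF probe sets, at −1.52, −1.35 and −1.04, while the other 5 were between −0.18 and 0.01. With the mean of all 8 it was −0.55 (adjusted p = 0.0451). For CDH1, which encodes E-cadherin, the values were 8.50 and 8.64 against 9.72 and 9.65 in A549, and 10.82 and 10.78 against 10.65 and 10.93 in PC9. The A549 groups were apart and the PC9 groups overlapped, with an interaction of −1.12 (adjusted p = 0.00729).

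The adhesion molecule gene EPCAM (−0.71) and the keratin gene KRT19 (−0.65) were also lower in the interaction (adjusted p = 0.0189 and 0.0389). Both stood far higher in the PC9 vector arrays (12.05 and 12.03 for EPCAM, 13.48 and 13.70 for KRT19) than in those of A549 (6.05 and 6.03, and 9.62 and 9.77). Each was called in 2 of the 8 fits that left out an array, CDH1 in 7 and EHF in all 8. With the 18S rRNA covariate EPCAM went to −0.57 and KRT19 to −0.49 (adjusted p = 0.42 and 0.59). CDH1 (−0.996) and EHF (−1.15) were not called with it either (adjusted p = 0.214 and 0.20). Of 31 epithelial markers none was called higher and 27 did not pass, and 13 of the 31 had a positive interaction. The list median was −0.036 against −0.0031 for all genes.

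PKIB encodes a peptide inhibitor of the cAMP-dependent kinase and fell 4.88-fold in A549, from 7.27 and 7.50 to 5.35 and 4.86. Its PC9 change of −0.59 did not pass, and the interaction was −1.70 ± 0.24 (adjusted p = 0.0149; called in 4 of the 8 fits that left out an array). PI3, the elastase inhibitor elafin, had the lowest interaction of the called genes in this fit, −1.83 ± 0.29 (adjusted p = 0.0287), on a single probe set, and was called in 2 of the 8 fits that left out an array. It fell 1.99-fold in A549, and in PC9 it read 9.45 and 9.98 with EN2 against 8.56 and 9.19, a change of 0.84 that did not pass. TM4SF4, a tetraspan membrane protein, fell 2.27-fold in A549 from 10.04 and 10.21, and was at 3.92 to 4.16 on the PC9 arrays, around background (interaction −1.21). OLFML3, a secreted olfactomedin-like protein, was lower by 1.23 (adjusted p = 0.0303), which went to −0.68 with the 18S rRNA covariate (adjusted p = 0.576).

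Of the 16 genes called in both lines in the same direction, 14 were not called in the interaction. ABCG2, a drug efflux transporter, had an interaction of 0.05 (95% interval −0.32 to 0.42), with changes of −1.09 in A549 and −1.14 in PC9. RGCC, a cell cycle regulator, had 0.05 (−0.31 to 0.42), and HES1, a repressor downstream of Notch, 0.20 (−0.15 to 0.55). The aldo-keto reductase genes AKR1B15 and AKR1B10, which are close copies and may share signal, had −0.07 (−0.34 to 0.20) and 0.14 (−0.10 to 0.38). PDLIM5, a PDZ and LIM domain scaffold, had 0.09 (−0.15 to 0.33). With the mean of probe sets neither change of HES1 was called (adjusted p = 0.0613 in A549 and 0.291 in PC9). The same held for PDLIM5 (adjusted p = 0.0953 and 0.155). These 6 genes were chosen for the smallest interactions, so values near 0 follow from the choice. RGCC was below background in the A549 vector arrays (4.30 and 4.13), so its A549 rise was not fully read. In the other genes a difference between lines beyond 0.55 on the log2 scale lay outside the interval. The intervals do not show that the changes were equal.

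EN2 itself is the check of the design, and its 2 probe sets differed. The brighter one read 7.71 and 7.62 against 6.48 and 6.57 in A549, and 6.24 and 6.39 against 5.86 and 5.78 in PC9. On it EN2 rose 2.21-fold in A549 (adjusted p = 0.00028; 0.13 with the 18S rRNA covariate), and the PC9 change of 0.50 did not pass (adjusted p = 0.0801), although the arrays did not overlap in either line. The difference between the lines, 0.65 (95% interval 0.36 to 0.94), did not pass (adjusted p = 0.0638), and it passed with quantile normalisation over all arrays (0.75, adjusted p = 0.0365) and in none of the 8 fits that left out an array. The dimmer EN2 probe set read 6.46 and 6.34 against 6.33 and 6.38 in A549, and 5.19 and 5.20 against 5.28 and 4.78 in PC9. It was above background, its groups overlapped in both lines, and its changes of 0.05 and 0.16 did not pass (adjusted p = 0.931 and 0.993 over all probe sets), with an interaction of −0.11. The mean of both probe sets gave an A549 change of 0.60 (adjusted p = 0.0179). The probe sets do not tell whether they read the vector-borne copy, and whether the EN2 amount bears on the interactions was not tested.

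The interaction was then related to the vector level of each gene. Genes whose vector level differed strongly between the lines were called more often. Of 14073 genes with vector levels within 1 log2 unit of each other, 45 were called (0.320%). Of 529 genes at least 2 units higher in PC9, 21 were called (3.97%), and of 608 genes at least 2 units higher in A549, 25 (4.11%). The bins between had 1.83% (PC9 higher by 1 to 2 units) and 1.63% (A549 higher by 1 to 2 units). The median SE of the interaction was close in all bins, 0.13 to 0.16. The vector arrays enter both the bin and the interaction.

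When a vector array of each line set the bin and the other set the change, so that no array was shared, fewer genes were called but the outer bins stayed above the middle bin. With replicate 1 setting the bin, 1.16%, 0.101% and 1.70% of genes were called in the lowest, middle and highest bin. With replicate 2 setting it, 0.921%, 0.0283% and 0.333% were called, the last from 2 of 600 genes. The median size of the interaction without regard to sign was 0.16, 0.11 and 0.24 in the lowest, middle and highest bin with all arrays, and 0.17, 0.13 and 0.29 or 0.18, 0.13 and 0.25 without shared arrays. In the highest bin the A549 changes were the larger (median size 0.22, against 0.088 in PC9). In the lowest bin, where PC9 had the higher vector level, they were 0.11 in A549 and 0.088 in PC9.

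**Figure D3:**
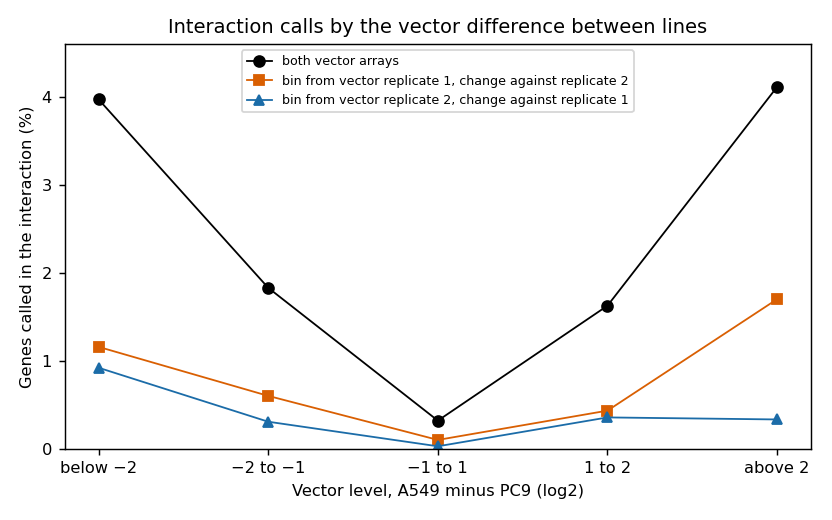
Percent of genes called in the interaction, by the vector level of A549 minus that of PC9 in bins of log2 units. Black circles use both vector arrays, and the squares and triangles take bin and change from different vector arrays; in all 3 series the middle bin is the lowest.

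The direction of the interaction did not follow the line with the higher vector level. In the lowest bin 13 genes were higher and 8 lower, and in the highest bin 12 were higher and 13 lower. Of the 108 genes called in A549 only, 58 (53.7%) had the higher vector level in A549, against 59.7% of all genes. Of the 20 called in PC9 only, 9 (45.0%) did. The gap between the lines was smaller with EN2 than with vector for 66 of the 143 genes and larger for 77. For all genes it was smaller for 48.5%. TM4SF4 and NID2, a basement membrane linker, were high in A549 and near or below background in PC9. For NID2 the A549 arrays went from 9.15 and 9.14 to 10.12 and 9.98, with PC9 at 3.60 to 3.76. DIO2 and EPCAM were at least 4 log2 units higher in PC9 and were called through A549.

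Most genes of the outer bins were not called. VIM, the gene of the filament protein vimentin, is an example chosen after its values were seen. It read 12.88 and 12.83 in the A549 vector arrays and 4.04 and 4.14, just above background, in those of PC9, with an interaction of 0.01 (95% interval −0.24 to 0.26). By class, 123 of the 143 called genes were above background in the vector arrays of both lines (0.822% of 14970 such genes), 10 in A549 alone (1.63% of 613), 6 in PC9 alone (0.837% of 717) and 4 in neither (0.206% of 1944). These counts turned on the cutoff. At the 99th percentile of the spike-ins (7.69 in A549 and 6.46 in PC9), 59 were above it in both lines (0.872%). A further 15 were above it in A549 alone (5.88%), 39 in PC9 alone (1.27%) and 30 in neither (0.368%).

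**Figure D4:**
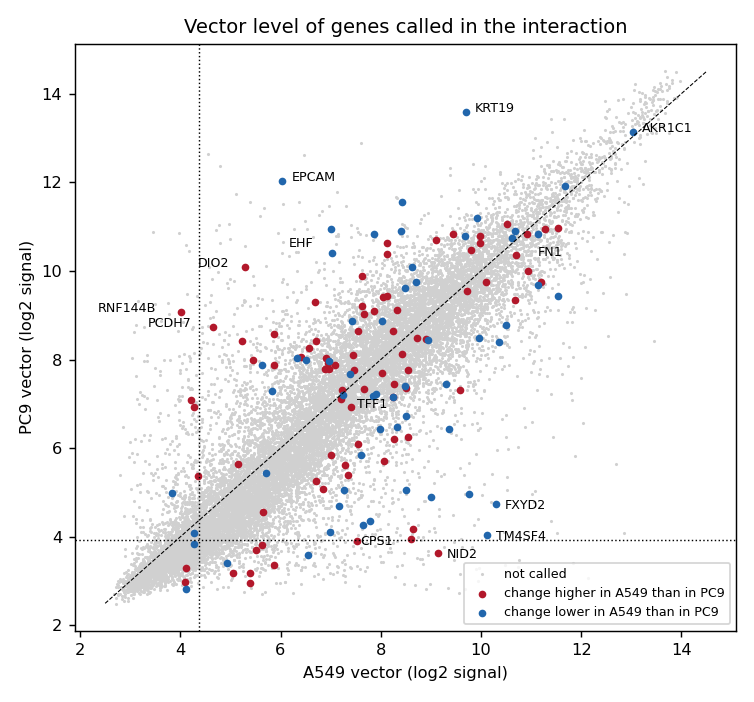
Vector level of each gene in A549 (x axis) and PC9 (y axis), in log2 signal, with genes called in the interaction in red (change higher in A549) or blue (lower); dotted lines mark the spike-in background and the dashed line equal levels. Both colours lie on both sides of the dashed line.

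Gene lists of signalling, lineage and structural genes had few members called. Beside the counts of every list stand the shares over all genes, 0.460% higher and 0.323% lower. Targets of p53, intact in A549, had the lowest list median, −0.28 against −0.0031 for all genes. Of 22 measured, MDM2, the ubiquitin ligase that degrades p53, was lower (−0.92, adjusted p = 0.0156), none was higher and 21 did not pass. It read 8.41 and 8.51 against 9.24 and 9.35 in A549, and 7.44 and 7.61 against 7.38 and 7.50 in PC9. All 11 MDM2 probe sets had a negative interaction, and 19 of the 22 list members did. The list median was −0.41 with the 18S rRNA covariate, while MDM2 went to −0.72 and was not called (adjusted p = 0.40). MDM2 was called in 3 of the 8 fits that left out an array.

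NRF2 targets, the antioxidant genes that KEAP1 restrains, had a median of −0.12. Of 25 measured, the glutathione peroxidase gene GPX2 (−1.03) and the aldo-keto reductase gene AKR1C1 (−0.51) were lower, none was higher and 23 did not pass. With the 18S rRNA covariate these were −0.62 and −0.30 (adjusted p = 0.334 and 0.504). AKR1C1 fell 1.44-fold in A549, to 12.43 and 12.59, and all 4 PC9 arrays were at 13.12 to 13.14. Of 35 subunits of respiratory complex I, none was called and 1 had a positive value, with a median of −0.17. NDUFS3 was the lowest, at −0.37 (adjusted p = 0.174). The medians of both lists were nearer 0 with the 18S rRNA covariate (−0.050 and −0.070).

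Signalling lists lay on the other side. TGF-beta and SMAD targets had the highest median, 0.40, and 17 of 21 were positive. THBS1, the gene of thrombospondin, was higher (0.72, adjusted p = 0.0339; 0.38 and not called with the mean of its probe sets, adjusted p = 0.26), none was lower and 20 did not pass, COL4A1 (0.85, adjusted p = 0.0594) and CCN2 (1.42, adjusted p = 0.169) among them. YAP and TAZ targets had a median of 0.39. Of 22, the forkhead gene FOXF2 (0.79) was higher, the receptor kinase gene AXL (−0.67) was lower and 20 did not pass. NF-kB and inflammatory targets had a median of 0.28 with none of 28 called, and type I interferon genes one of 0.24, with SAMD9, an antiviral factor, higher (1.05, adjusted p = 0.00369) and 37 of 38 not passing.

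These 4 medians were smaller with the 18S rRNA covariate: 0.17 for TGF-beta, 0.087 for YAP and TAZ, −0.020 for NF-kB and 0.099 for interferon. The EGFR-RAS-MAPK output list turned from 0.14 to −0.31, and none of its 27 members was called. The DNA replication list went from −0.018 to 0.58 and the mitosis list from 0.13 to 0.75, with no member of either called. The slope of the covariate rests on the A549 replicates, since the signal hardly varied in PC9. These shifts therefore give no firm reading of a difference between the lines.

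**Figure D5:**
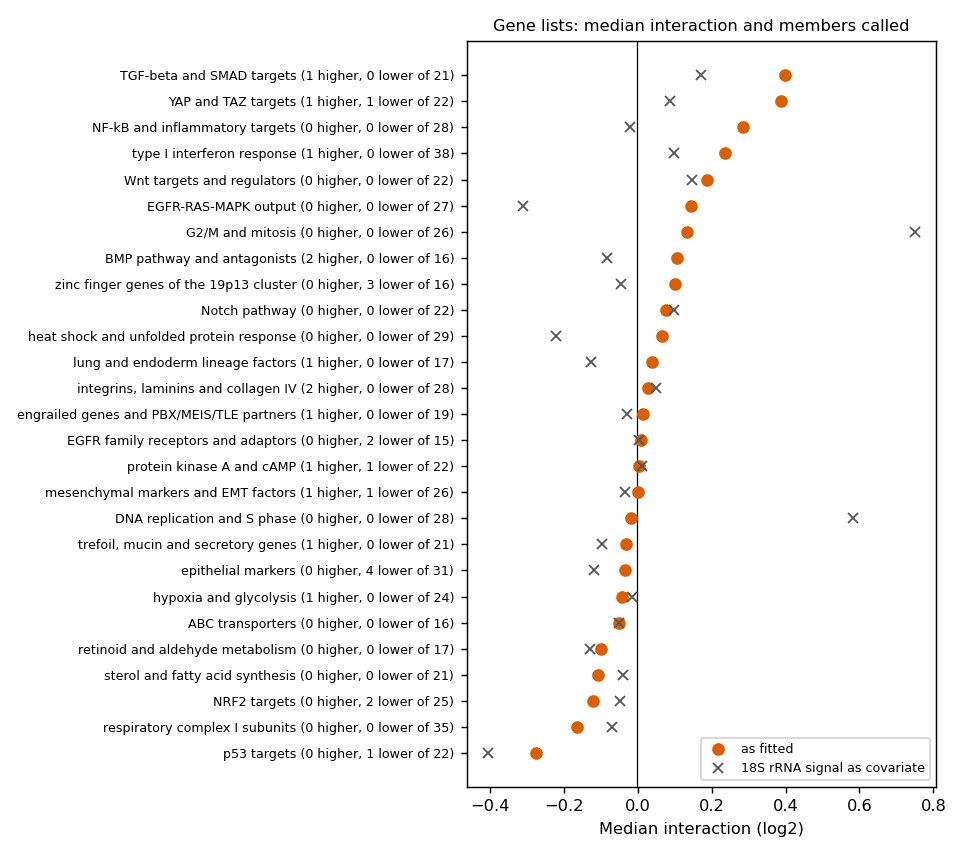
Median interaction (log2) of 27 gene lists, as fitted (circles) and with the 18S rRNA signal as covariate (crosses), with the members called higher or lower in brackets and the median of all genes as a line. The p53 targets have the lowest circle (−0.28) and the TGF-beta and SMAD targets the highest (0.40), and several crosses lie far from their circles.

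Among receptor kinases, AXL rose 1.70-fold in PC9, from 9.69 and 9.67 to 10.56 and 10.33, and read 11.31 and 11.15 against 11.14 and 11.14 in A549. MET, the hepatocyte growth factor receptor, had an interaction of −0.45 (adjusted p = 0.0485), with changes of −0.14 in A549 and 0.30 in PC9 that did not pass alone. All 6 MET probe sets had a negative interaction. With the mean of probe sets neither AXL (−0.57, adjusted p = 0.0542) nor MET (−0.41, adjusted p = 0.143) was called. Of 15 genes of the list of EGFR-family receptors and adaptors these 2 were lower, none was higher and 13 did not pass. EGFR itself was at −0.14 (95% interval −0.59 to 0.32).

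Among partners of engrailed proteins, the homeobox gene MEIS2 fell 1.75-fold in PC9, from 8.06 and 8.02 to 7.34 and 7.13, and was level in A549 (6.85 and 6.95 against 6.93 and 6.89). Its interaction was 0.80 (adjusted p = 0.031), and with the mean of its 5 probe sets 0.44 and not called (adjusted p = 0.116). The other 18 list members did not pass, the corepressor gene TLE4 (0.86, adjusted p = 0.131) among them. CDIN1, the neighbour of MEIS2 in the order of tested genes, was also called higher from the PC9 side (0.70). Such neighbouring pairs called in 1 direction numbered 4. The others were ZNF57 with ZNF77, FOXQ1 with FOXF2, both higher, and DSCAML1 with FXYD2, both lower.

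Engrailed homeodomains bind DNA with a TAAT core, so the promoters were searched for TAATTA, which reads the same on both strands. The window ran from 250 bases before to 50 after the RefSeq start (GRCh38.p14), and 14488 of the 18244 genes had one. The word was in 2 of 64 promoters of genes called higher (3.12%), in 0 of 44 of those called lower, which allows a share of up to 6.82%, and in 3.19% of all. These shares were near the background, and a match is only a description. PLPP3 and HEG1, a mucin-like membrane protein (interaction 0.88, or 0.57 with the 18S rRNA covariate), were the 2 genes with a match. Their 250 bases before the start are shown because they hold it (in capitals), beside those of FN1, which moved in opposite directions and has none. PLPP3 is at chr1:56579564-56579813, HEG1 at chr3:125055998-125056247 and FN1 at chr2:215436069-215436318, all on the minus strand, and the match began 135 bases before the start in PLPP3 and 111 in HEG1.
PLPP3: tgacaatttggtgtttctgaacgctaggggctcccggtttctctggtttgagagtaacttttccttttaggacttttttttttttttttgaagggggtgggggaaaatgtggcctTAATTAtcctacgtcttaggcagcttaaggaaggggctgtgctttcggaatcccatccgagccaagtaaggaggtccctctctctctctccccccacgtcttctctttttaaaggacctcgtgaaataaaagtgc
HEG1: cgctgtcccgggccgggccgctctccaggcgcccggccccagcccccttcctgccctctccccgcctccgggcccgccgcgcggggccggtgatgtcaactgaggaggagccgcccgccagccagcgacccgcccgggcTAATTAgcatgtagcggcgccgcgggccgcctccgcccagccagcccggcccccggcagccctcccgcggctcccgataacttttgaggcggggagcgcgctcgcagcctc
FN1: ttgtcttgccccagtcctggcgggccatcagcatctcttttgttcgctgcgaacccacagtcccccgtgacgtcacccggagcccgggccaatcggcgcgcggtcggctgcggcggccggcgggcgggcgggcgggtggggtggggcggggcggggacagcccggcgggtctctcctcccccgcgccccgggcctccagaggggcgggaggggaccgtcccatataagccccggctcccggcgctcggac
The FN1 stretch had 76.4% G and C and the HEG1 stretch 78.4%, against 46.0% in PLPP3.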

How the data were processed

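The authors deposited log2 probe set signals of 49495 probe sets on 8 single-colour arrays, made by RMA (per the submitters' processing notes). Its version is not given in the sources used here, nor is whether 1 run covered all arrays. No label calls the replicates separate cultures, so p-values measure only the spread between these arrays. Symbols came from the array annotation, updated through Entrez identifiers. Of the probe sets, 45284 had 1 symbol, 1333 several and 2878 none. A gene was its single-symbol probe set with the highest mean.

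Group means were estimated from the 8 arrays together with limma 3.58.1 in R 4.3.3 (eBayes with intensity trend, 4 residual degrees of freedom, two-sided tests). Benjamini-Hochberg adjustment covered 18244 genes, and genes under 0.05 were called. With 2 arrays against 2, the smallest exact permutation p is 0.333. The method was tested on simulated data.

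The members, gene lists and naming rule were chosen with earlier results of these data known. The genes named in the text were EN2; among called interactions, the 15 highest and 15 lowest whose pairwise changes did not overlap; the 8 highest and 8 lowest above background in both lines; up to 6 opposite calls; the 6 smallest interactions called in both lines alike; and, for each list described, up to 4 members by smallest p. Symbols of uncharacterised loci were left out. Other genes named, such as FXYD2, DSCAML1, CDIN1, FOXQ1, HEG1, PRSS3, HSPA1A, NTS and VIM, were picked after seeing their values. The alternatives comprised another prior variance, filter, normalisation, probe set rule, array weight, threshold, treat null or 18S rRNA covariate, the replicate block, and leaving out arrays.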

Additional observations from a re-analysis of the deposited data

Results flagged for a closer look

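The EN2 effect differed between the lines by limma's test of the difference itself in 84 genes that were higher in A549 and 59 that were lower. Among the named genes, the A549 change exceeded the PC9 change by 2.35 (log2) in TFF1, 2.19 in PPP1R14C, 2.15 in PCDH7, 2.09 in FN1, 1.93 in GREM1, 1.69 in SPOCK1, 1.62 in IQGAP2, 1.61 in NPTX1 and 1.55 in DIO2. It exceeded it by 1.49 in GATA6, 1.45 in GASK1B, 1.39 in CA13, 1.38 in FOXO1, 1.35 in XYLT1, 1.33 in PLPP3, 1.32 in TFPI2 and 1.04 in PEG10. The difference was −1.83 in PI3, −1.74 in ZNF57, −1.70 in PKIB, −1.52 in EHF, −1.49 in PXYLP1, −1.34 in THSD7A, −1.34 in NFIX and −1.33 in ZNF77. It was −1.29 in TNFSF15, −1.25 in PLCL2, −1.23 in OLFML3, −1.21 in TM4SF4, −1.20 in ZNF555, −1.18 in COL8A1 and −1.17 in ZNF165. In IQGAP2, XYLT1, CA13 and GASK1B the PC9 level was below background, and in TNFSF15 the A549 level was. PLCL2 and, in PC9, TM4SF4 were near or below it. A fall of the PC9 size could not have been read for PCDH7 in A549. For THSD7A a difference between the lines cannot be shown.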

How the results depend on the processing

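The counts moved with several alternatives. Against 84 higher, 59 lower, 496 called in A549, 67 called in PC9, 108 interactions called in A549 only and 20 in PC9 only, the counts in that order were 20, 15, 77, 15, 26 and 6 with treat against a 1.2-fold difference, and 20, 15, 138, 26, 26 and 8 at an adjusted p below 0.01. With the 18S rRNA covariate they were 5, 5, 20, 92, 6 and 4. Without the 2 outer A549 arrays by that signal they were 0, 0, 25, 27, 0 and 0 in limma, with 1324 interactions at an unadjusted p below 0.05. Leaving out 1 array gave 21 to 78 higher, 14 to 46 lower, 112 to 623 in A549, 19 to 62 in PC9, 27 to 105 in A549 only and 6 to 13 in PC9 only. Opposite calls were 0 to 3, same direction 0 to 1, and neither 0 to 5.

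With the replicate number as a replicate block within each line, the counts were 264, 162, 1393, 126, 332 and 45. The deviations of same-numbered arrays correlated at 0.35 within A549, the highest of the group pairs, and at 0.066 within PC9. The titles number the replicates without saying that the numbers pair the arrays, so the main fit held no block. Whether the A549 arrays share a replicate effect was not tested. Of 813 values of named genes under alternatives, 682 kept their side of the threshold, 130 lost the call and 1 gained it (EN2, with quantile normalisation). PCDH7 passed TFF1 as the highest with the 18S rRNA covariate (2.41 against 2.15) and with the mean of probe sets (2.41 against 2.35). PKIB passed PI3 as the lower of the pair with the covariate (−2.07 against −1.89). Depth of arrays gives no counting error here. With 2 arrays a group, their number limits the precision, and signals near background give no reading of a fall.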

Other observations

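The other called genes named here were chosen after their values were seen, so they stand for no group. Higher in the interaction, and higher with EN2 in A549, were the transcription factor genes NFE2L3, a relative of NRF2 (1.07), NR4A2, an orphan nuclear receptor (1.04), GATA3 (0.91), TFAP2C (0.78) and SOX4 (0.73). BDNF, a neurotrophin (1.24), and SYT1, a synaptic vesicle calcium sensor (1.11), were higher as well. On the lower side were PPM1D, a phosphatase that restrains p53 (−0.98), and SFN, an epithelial 14-3-3 protein (−0.62), neither of them in the list of p53 targets used above, and SRC, a tyrosine kinase (−0.64). From the PC9 side, DMXL2, a regulator of the proton pump of vesicles (1.13), NCOA7 (1.08), the desmosomal cadherin gene DSC2 (1.02) and TACC1, a centrosomal coiled-coil protein (0.87), fell in PC9 with A549 changes that did not pass. With the 18S rRNA covariate NR4A2 went to 0.69, GATA3 to 0.53, SFN to −0.33, SRC to −0.41 and NCOA7 to 0.70, none of them called. The other genes of this paragraph were not called with the covariate either. With the mean of probe sets DSC2 went to 0.64 and stayed called, and NR4A2 (1.005) was not called (adjusted p = 0.0664).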
